A study of Bos taurus with 15 samples.

Results

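The levels of 10 genes that carry nutrients and ions across the digestive epithelium were followed along the cattle digestive tract. The genes were taken by symbol from the 27270 genes listed in every library, and all 10 were present: *SLC5A1*, *SLC2A2*, *SLC2A5*, *SLC15A1*, *SLC6A19*, *SLC10A2*, *SLC13A2*, *SLC14A1*, *SLC26A3*, and *SLC9A3*. Their levels were read in cells with at least 1 unique molecular identifier (UMI, the count of 1 captured transcript) of *EPCAM*, a surface gene of simple epithelium, or of *KRT14*, a keratin of stratified epithelium. These were 31453 of 119798 retained cells. Single-cell RNA sequencing libraries came from untreated Holstein cattle. The 11 newborn (NB) libraries held 3 of the stomach (reticulum, omasum, and the glandular abomasum), 3 of small intestine (duodenum, jejunum, ileum), 3 of large intestine (cecum, colon, rectum), 1 of liver, and 1 of the parotid, a salivary gland. The 4 adult (AD) libraries held duodenum, jejunum, cecum, and colon. Every tissue and stage had 1 library. The 4 AD tissues were collected from 1 lactating cow and the NB tissues from 3 calves, and the calf behind each NB library is not given in the sources used here. AD duodenum and cecum were digested with a lamina propria kit and AD jejunum and colon with another tissue kit, whereas NB intestine was first treated with EDTA and trypsin. Stage, animal, and dissociation therefore changed together and cannot be told apart, and no difference below has a replicate check.

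Absorption across an epithelium needs carriers on the apical membrane, which faces the lumen, and on the basolateral membrane, which faces the blood. Most apical nutrient carriers are driven by the inward gradient of sodium or protons, which ion pumps and exchangers maintain. In the ruminant, microbes ferment most dietary sugar in the forestomach after weaning, while the milk of the suckling calf passes to the abomasum and reaches the small intestine with its lactose intact.

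Total UMIs per library were 17707625 to 129458578, with a median of 82195756, and the *EPCAM* or *KRT14* cells numbered 73 to 9505 per library at a median of 4145 to 12374 UMIs each. Levels are given as CPM, the UMIs of a gene per 1000000 UMIs of all *EPCAM* or *KRT14* cells of a library, with exact Poisson intervals at the 95% level in square brackets. These intervals cover counting error only and not the difference between animals. Because transcripts were counted at their 3' end without scaling to length, each gene was compared between libraries and not with other genes. Between 4 and 84 barcode sequences were shared by any pair of libraries (median 37 over 105 pairs).

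The *EPCAM* or *KRT14* cells matched their label unevenly. In NB reticulum and omasum they made up 92.4% and 95.1% of the retained cells, and 0.0774% and 0.0736% of them held a UMI of the leukocyte gene *PTPRC*. In the NB intestine they made up 11.2% to 47.8%, and 3.64% of those in duodenum, 9.17% in jejunum, and 14.7% to 29.5% in ileum, cecum, colon, and rectum held *PTPRC*. In the AD libraries they made up 1.93% of duodenum, 2.62% of jejunum, 7.47% of cecum, and 5.19% of colon, and 80.9%, 47.7%, 58.0%, and 64.0% of them held *PTPRC*. The summed level of 7 T and NK cell markers was 1.41 to 314 CPM in the NB tract and 1585 to 2578 CPM in the AD libraries, where all 7 were detected. The 5 B and plasma cell markers summed to 1.47 to 1320 CPM in the NB tract and 3066 to 30219.8 CPM in AD. The 19 absorptive cell markers summed to 57473 CPM in NB duodenum, 43779 CPM in NB jejunum, and 3526 to 6359 CPM in the other NB intestine, but to 915 CPM in AD duodenum and 1901 CPM in AD jejunum, against 19084 and 15975 CPM in AD cecum and colon. Of these 19, *ALPI*, the intestinal alkaline phosphatase, was at 0 UMIs in every tract library except NB duodenum, and *ANPEP*, *CA4*, *AQP8*, *GUCA2A*, and *GUCA2B* were also at 0 in AD duodenum. A smaller share of absorptive cells and less RNA per absorptive cell lower a summed CPM alike and cannot be told apart in it.

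The upper limits on genes and UMIs and the removal of doublets took most of the cells richest in *EPCAM* from the AD small intestine. Of 256 AD jejunum cells with at least 5 UMIs of *EPCAM* and *KRT14* that passed the limits, 148 were removed as doublets, and of 19 in AD duodenum, 18 were removed. A second definition was therefore added after the data had been seen: at least 5 UMIs of the 2 genes and at least 500 genes, with no upper limits and doublets kept. It gave 24, 331, 362, and 213 cells for AD duodenum, jejunum, cecum, and colon, of which 18.8% to 23.3% held *PTPRC*, and 3641, 1282, 561, and 987 cells for the same NB tissues, of which 1.59% to 6.77% did. The absorptive markers then summed to 21525 CPM in AD duodenum and 11552 CPM in AD jejunum, still below 52051 and 38540 CPM in NB. In cecum and colon they summed to 24291 and 24880 CPM in AD, above 11899 and 5146 CPM in NB. The 5-UMI cells thus also differed in absorptive markers between the stages. NB tissues had also lost cells with at least 5 UMIs of the 2 genes. Of the 561 cells of NB cecum, 182 were retained after the limits and doublet removal, and of the 987 of NB colon, 521. Other cell types also differed in amount between the stages. In duodenum, jejunum, cecum, and colon the 4 endothelial markers summed to 94.3, 118, 152, and 25.6 CPM in NB and 10.3, 15.9, 1.11, and 16.5 CPM in AD, and with at least 5 UMIs to 33.0, 62.2, 30.3, and 1.40 CPM in NB and 0, 4.05, 0.317, and 0.903 CPM in AD. The 5 myeloid markers summed to 466, 1543, 1018, and 167 CPM in NB and 336, 900, 36.6, and 134 CPM in AD, and with at least 5 UMIs to 158, 272, 107, and 30.7 CPM in NB and 153, 558, 36.1, and 24.1 CPM in AD. The 5 fibroblast markers summed to 104, 356, 2563, and 75.0 CPM in NB and 0, 1.10, 0.185, and 329 CPM in AD, and with at least 5 UMIs to 34.8, 123, 311, and 29.0 CPM in NB and 0, 0.552, 0.317, and 1.51 CPM in AD. All markers of these 3 lists were detected in the 4 NB tissues. In AD duodenum all 5 fibroblast markers and *CDH5*, *VWF*, and *CLDN5* were at 0 UMIs, as were *CDH5* and *CLDN5* in AD cecum. The tuft cell markers, those of another epithelial cell type, summed to 3.07, 4.69, 6.63, and 13.0 CPM in NB and 6.18, 758, 101, and 154 CPM in AD. These tuft sums are over cells with at least 1 UMI, in the same order of tissues. The part of all these cell types in the stage differences below was not tested. Stage comparisons of the members are given under both definitions, called the 1-UMI and the 5-UMI definition.

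**Figure D1:**
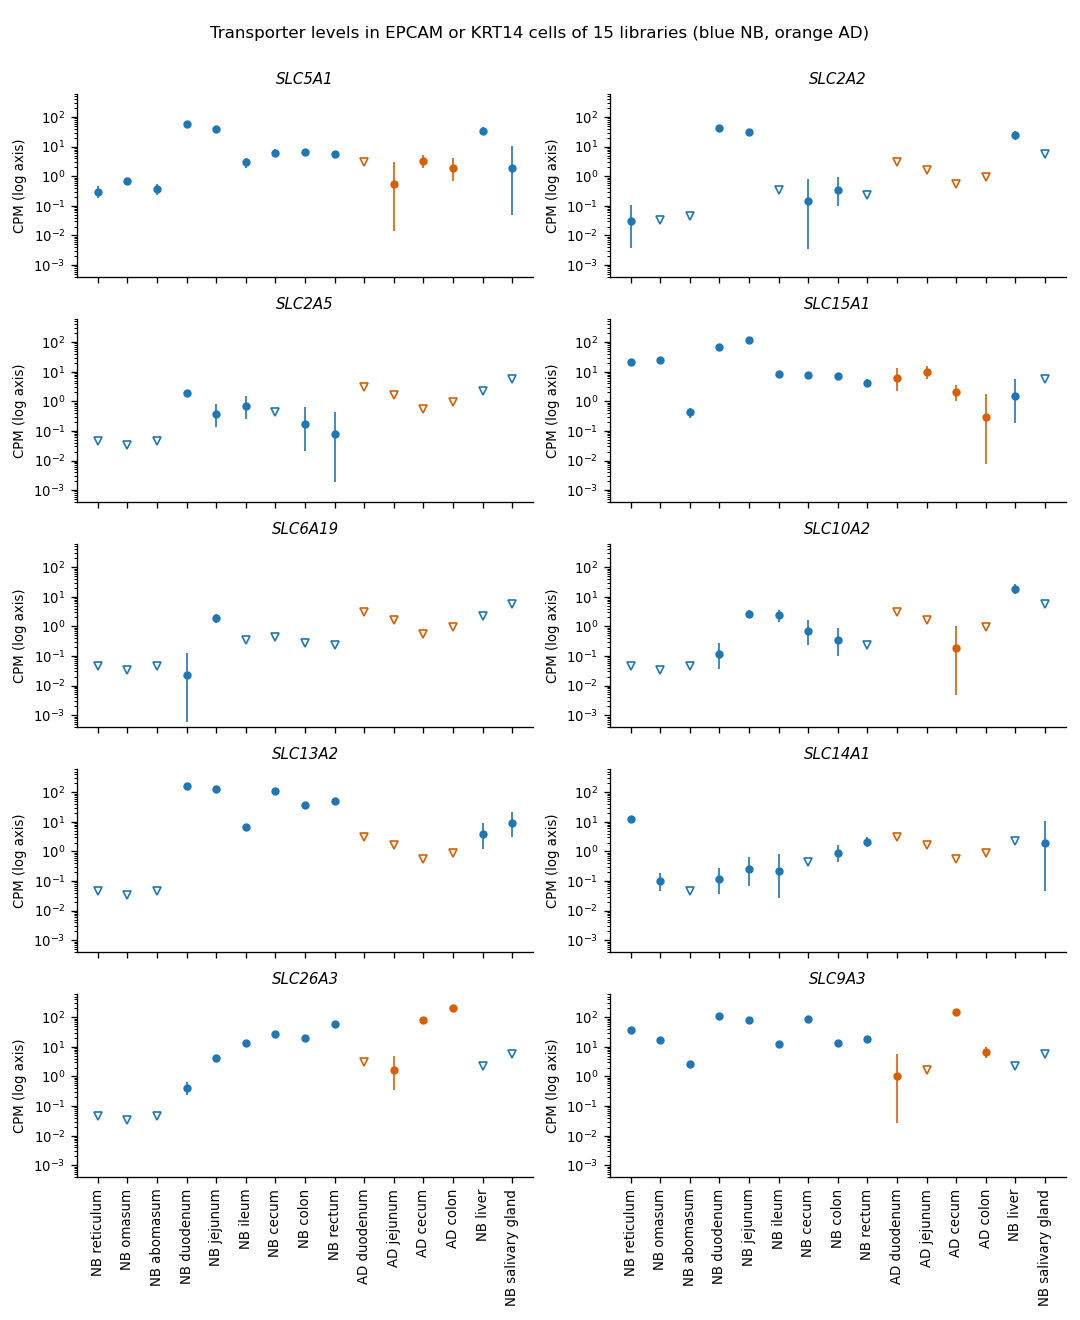
CPM of each transporter (log axis) in *EPCAM* or *KRT14* cells of the 15 libraries under the 1-UMI definition. Filled points are measured levels with 95% Poisson intervals, open triangles mark a count of 0 at the level of 3 counts, blue is NB, and orange is AD. *SLC5A1* and *SLC2A2* peak in NB duodenum and jejunum, *SLC14A1* in NB reticulum, and *SLC26A3* in AD colon.

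*SLC5A1* (ENSBTAG00000012851), the apical sodium-coupled carrier of glucose and galactose, was highest in the upper NB small intestine. It stood at 56.8 CPM [54.6 to 59.1] in NB duodenum and 40.7 CPM [37.6 to 43.9] in NB jejunum. It then dropped to 2.92 CPM [1.91 to 4.28] in NB ileum. The NB cecum, colon, and rectum lay at 6.21, 6.38, and 5.79 CPM, and their intervals overlapped. In the AD libraries it stood at 0 UMIs in duodenum, where 3 counts would be 3.09 CPM, at 1 UMI or 0.548 CPM [0.0139 to 3.05] in jejunum, at 3.33 CPM in cecum, and at 1.83 CPM in colon. The NB reticulum, omasum, and abomasum held 0.302, 0.681, and 0.358 CPM. A UMI of *SLC5A1* was found in 31.9% of the NB duodenum cells. After each cell was thinned to 1000 UMIs the share was 4.61% [3.94 to 5.35, exact binomial] of 3559 cells, against 0 of 744 *PTPRC* cells without *EPCAM* or *KRT14*, which at the floor of 3 counts allows a share of cells with a UMI of up to 0.403%, at median depths of 12074 and 10064 UMIs before thinning.

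*SLC2A2* (ENSBTAG00000005386), the facilitative glucose carrier through which sugar leaves the enterocyte, was nearly restricted to the same 2 tract libraries. It reached 42.6 CPM [40.7 to 44.6] in NB duodenum and 30.9 CPM [28.2 to 33.7] in NB jejunum. In NB ileum it was at 0 UMIs (3 counts would be 0.337 CPM), and no other tract library exceeded 0.355 CPM, the level of NB colon. All 4 AD libraries were at 0 UMIs, where 3 counts would be 0.555 to 3.09 CPM. The fructose carrier *SLC2A5* (ENSBTAG00000007302) was scarce everywhere. It was highest in NB duodenum at 1.92 CPM [1.53 to 2.37], followed by NB ileum at 0.673 CPM and NB jejunum at 0.380 CPM, whose intervals overlapped each other. Its remaining levels were 0 to 0.177 CPM, with 0 UMIs in all AD libraries.

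*SLC15A1* (ENSBTAG00000004440), the proton-coupled carrier of dipeptides and tripeptides, was found in both the stratified forestomach and the small intestine, as was *SLC9A3* below. It peaked in NB jejunum at 122 CPM [117 to 128], followed by NB duodenum at 66.4 CPM [64.0 to 68.9]. NB omasum held 24.2 CPM [23.2 to 25.2] and NB reticulum 21.3 CPM [20.2 to 22.4], while the glandular abomasum between omasum and duodenum held 0.420 CPM. NB ileum, cecum, colon, and rectum followed at 8.19, 7.48, 7.27, and 4.24 CPM, the first 3 with overlapping intervals. The AD levels under the 1-UMI definition were 6.18 CPM in duodenum, 9.86 CPM in jejunum, 2.03 CPM in cecum, and 0.306 CPM in colon. The colon value rested on 1 UMI and lay below the 0.745 CPM of AD colon *PTPRC* cells, so it was at background. The apical carrier of neutral amino acids, *SLC6A19* (ENSBTAG00000045695), was found in NB jejunum at 1.90 CPM [1.28 to 2.71] and as 1 UMI in NB duodenum, and was at 0 UMIs in the other 13 libraries.

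*SLC10A2* (ENSBTAG00000005925), the apical sodium-bile acid carrier that recovers bile acids in the distal small intestine, was low in the tract. NB jejunum and ileum held 2.66 CPM [1.92 to 3.60] and 2.36 CPM [1.46 to 3.60], which did not differ beyond their counting intervals. NB cecum, colon, and duodenum held 0.706, 0.355, and 0.115 CPM, and AD cecum 1 UMI. It was at 0 UMIs in forestomach, abomasum, NB rectum, and the other AD libraries. Its cytoplasmic partner *FABP6*, which binds bile acids inside the ileal enterocyte, had a sharper regional profile, with 222 CPM in NB ileum, 14.1 CPM in NB jejunum, and at most 2.19 CPM in every other library.

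*SLC13A2* (ENSBTAG00000008788), the sodium-coupled carrier of dicarboxylates and citrate, was found throughout the NB intestine and in none of the AD libraries under the 1-UMI definition. It stood at 162 CPM [158 to 165] in NB duodenum, 133 CPM [128 to 139] in NB jejunum, and 110 CPM [102 to 118] in NB cecum. NB rectum held 50.9 CPM, NB colon 36.3 CPM, and NB ileum 6.62 CPM, and no intervals of neighbors in this order overlapped. It was at 0 UMIs in reticulum, omasum, abomasum, and all 4 AD libraries, where 3 counts would be at most 3.09 CPM. In NB duodenum 41.1% of the cells held a UMI, and 10.9% of those thinned to 1000 UMIs did, against 0.403% of thinned *PTPRC* cells, whose summed level was 4.06 CPM.

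*SLC14A1* (ENSBTAG00000019870), the facilitative urea carrier by which blood urea returns to the forestomach, separated the 2 NB forestomach libraries. NB reticulum held 12.8 CPM [11.9 to 13.7] and NB omasum 0.0989 CPM [0.0452 to 0.188]. NB rectum followed at 2.08 CPM [1.37 to 3.03]. The 0.887 CPM of NB colon lay below the 1.09 CPM of its *PTPRC* cells, but 9 of its UMIs lay in 2 absorptive-like cells. NB abomasum, NB cecum, and the 4 AD libraries were at 0 UMIs.

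*SLC26A3* (ENSBTAG00000015547), the apical chloride-bicarbonate exchanger, increased from the proximal to the distal NB intestine. It was at 0 UMIs in reticulum, omasum, and abomasum, and stood at 0.415 CPM in NB duodenum, 4.31 CPM in NB jejunum, 13.8 CPM [11.47 to 16.47] in NB ileum, 28.1 CPM [24.3 to 32.3] in NB cecum, 20.4 CPM [17.8 to 23.2] in NB colon, and 58.7 CPM [54.6 to 63.1] in NB rectum. Over all *EPCAM* or *KRT14* cells NB cecum was thus above NB colon, also without the 5 richest cells of each (22.1 and 17.2 CPM). In the absorptive-like cells given below, the intervals of these 2 libraries overlapped. The AD cecum and colon held 79.9 CPM [72.5 to 87.8] and 206 CPM [191 to 222], the highest levels of this gene, while AD jejunum held 3 UMIs and AD duodenum none.

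*SLC9A3* (ENSBTAG00000004629), the apical sodium-hydrogen exchanger, was found from the forestomach to the rectum in NB. It was highest in AD cecum at 151 CPM [141 to 162], followed by NB duodenum at 111 CPM [108 to 115]. NB cecum and jejunum came next at 88.8 CPM [81.97 to 95.99] and 79.2 CPM [74.9 to 83.7], which overlapped. NB reticulum held 36.6 CPM [35.2 to 38.1], ahead of NB rectum at 18.8 CPM and NB omasum at 17.6 CPM. NB colon and ileum held 13.9 and 12.1 CPM, AD colon 6.72 CPM, and NB abomasum 2.58 CPM. AD duodenum had 1 UMI and AD jejunum none. In AD cecum 31.0% of the 819 UMIs lay in 5 of 647 cells, without which it held 107 CPM. NB duodenum without its own 5 richest cells held 109 CPM, so the order of these libraries turned.

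Small and large NB intestine were compared by asking whether all 3 libraries of 1 lay above all 3 of the other, among genes of at least 10 CPM in 1 of the 6. Segments are not replicates, so the count is a description. Of 6 members tested, 1 was higher in duodenum, jejunum, and ileum (*SLC15A1*), where 9.05% of the 8771 genes tested behaved likewise. Another (*SLC26A3*) was higher in cecum, colon, and rectum, where 10.6% did. The shares of members were thus near the background. For *SLC15A1* the nearest values, 8.19 CPM in ileum and 7.48 CPM in cecum, had overlapping intervals, and the separation was lost under 4 of the alternative settings. For *SLC26A3* the nearest values were 13.8 CPM in ileum and 20.4 CPM in colon, with separate intervals, and the separation was lost with under 10% mitochondrial UMIs. *SLC5A1*, *SLC2A2*, *SLC13A2*, and *SLC9A3* were not separated, since NB ileum lay below or level with the large intestine in each.

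Levels were then read by cell cluster. Clusters were built for each library from variable genes without any *SLC* gene, and were given a name with "-like" only from marker genes. Clusters of different libraries were built separately.

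The absorptive-like clusters of NB duodenum differed among themselves. In the cluster led by *ADA* (326 cells) *SLC13A2* stood at 519 CPM [500 to 539], *SLC9A3* at 343 CPM, *SLC5A1* at 157 CPM, and *SLC2A2* at 115 CPM. *SLC5A1* was higher still in the cluster led by *CLCA4* (176 cells), at 248 CPM [225 to 273], while *SLC2A2* there stood at 113 CPM [97.9 to 131], overlapping the former cluster. In the *FABP1*-led cluster (430 cells) *SLC5A1* and *SLC13A2* stood at 86.3 and 264 CPM, and in the *DEFB*-led cluster (328 cells) at 37.2 and 89.9 CPM. Another cluster that the absorptive markers picked (264 cells) was led by *CFD* and *GUCA2B* and had *SPIB* and *MEIS1* among its leading genes, and was left unnamed after these were seen. It held 3.93 CPM of *SLC5A1* and 10.1 CPM [5.984 to 15.96] of *SLC13A2*.

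*SLC15A1* followed another pattern in these cells. It stood at 100 to 102 CPM in the *FABP1*-, *DEFB*-, and *ADA*-led clusters and at 62.3 CPM [51.0 to 75.5] in the *CLCA4*-led cluster, where *SLC5A1* was highest. In the 2 clusters named stem- or transit-amplifying-like (proliferating precursors) it still stood at 60.1 CPM [52.5 to 68.4] and 45.2 CPM [38.7 to 52.5]. In the same 2 clusters *SLC5A1* stood at 12.8 and 10.0 CPM, *SLC13A2* at 14.1 and 5.02 CPM, and *SLC2A2* at 3.47 CPM and 0 UMIs. Goblet-like cells (198), which secrete mucus, held 2.86 CPM of *SLC15A1* and 6.43 CPM of *SLC5A1*.

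**Figure D2:**
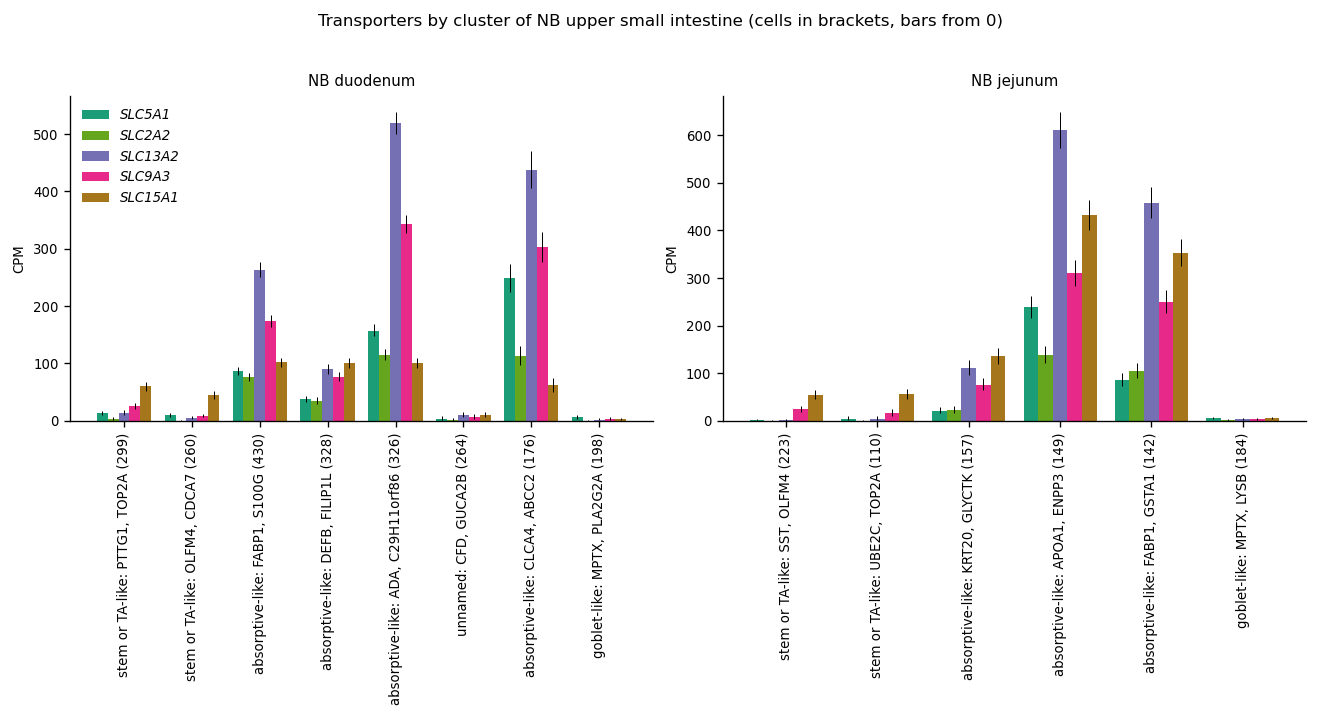
CPM (linear axis from 0) of 5 transporters in clusters of NB duodenum and NB jejunum cells, with 95% Poisson intervals. Each cluster is marked by its name (TA, transit-amplifying), 2 leading genes, and number of cells. The sugar, dicarboxylate, and sodium-hydrogen carriers are high in some absorptive-like clusters and near 0 in goblet-like ones, while *SLC15A1* stays at 45.2 to 60.1 CPM in stem- or TA-like clusters.

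NB jejunum had a similar arrangement, except that *SLC15A1* was highest in the cluster where *SLC5A1* was highest. The *APOA1*-led absorptive-like cluster (149 cells) held 238 CPM [215 to 263] of *SLC5A1*, 139 CPM of *SLC2A2*, 611 CPM [574 to 649] of *SLC13A2*, 310 CPM of *SLC9A3*, and 432 CPM [401 to 465] of *SLC15A1*. It also held 13.2 CPM [8.26 to 19.9] of *SLC6A19*. The *FABP1*-led cluster (142 cells) held 86.1 CPM of *SLC5A1*, 458 CPM of *SLC13A2*, and 353 CPM of *SLC15A1*, together with 11.4 CPM [6.96 to 17.6] of *SLC10A2*. In the *KRT20*-led cluster (157 cells) all 5 major carriers were lower, from 21.4 CPM of *SLC5A1* to 136 CPM of *SLC15A1*. The stem- or transit-amplifying-like clusters (223 and 110 cells) held 54.9 and 55.4 CPM of *SLC15A1* but 2.06 and 4.71 CPM of *SLC5A1*, and no UMI of *SLC2A2*.

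In NB ileum, absorptive-like cells (98) had *CA7*, *CFD*, and *GUCA2B* among their leading genes beside *FABP6*. *CFD* and *GUCA2B* also led clusters left unnamed in NB duodenum and AD cecum, so this name is less sure. These NB ileum cells held 7.39 CPM [3.54 to 13.6] of *SLC10A2*, 28.8 CPM of *SLC13A2*, 20.7 CPM of *SLC15A1*, 37.0 CPM of *SLC9A3*, and 6.65 CPM [3.04 to 12.6] of *SLC5A1*. *SLC26A3* stood at 34.0 CPM [24.9 to 45.4] there and at 32.6 CPM [24.3 to 42.7] and 31.9 CPM in the 2 stem- or transit-amplifying-like clusters, so it did not separate these cells beyond counting error. In NB cecum, colon, and rectum it was concentrated in absorptive-like cells, at 99.7 CPM [83.4 to 118], 109 CPM [93.8 to 126], and 182 CPM [166 to 199]. The stem- or transit-amplifying-like cells there held 0 UMIs, 4.75 CPM, and 4.45 CPM. Those of cecum were 1 cluster of 25 cells whose leading genes include *VPREB1*, while an unnamed cecum cluster of 123 cells, with *OLFM4* and *ASCL2* among its leading genes, held 31.4 CPM [23.9 to 40.6] of *SLC26A3*. The same absorptive-like cells of NB cecum, colon, and rectum held 448, 148, and 132 CPM of *SLC13A2*, and 382, 76.4, and 60.5 CPM of *SLC9A3*. *SLC14A1* was at 6.89 CPM [4.08 to 10.9] in absorptive-like cells of NB rectum, with 18 UMIs in 13 of 155 cells, and at 0 UMIs in those of NB cecum. In NB colon it was at 5.33 CPM [2.44 to 10.1], from 9 UMIs in 2 of 155 cells, which the interval treats as independent.

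In the stratified forestomach, *SLC14A1* and *SLC15A1* were high in different clusters of NB reticulum. *SLC14A1* stood at 41.4 CPM [36.2 to 47.1] in differentiated keratinocyte-like cells led by *SPINK5* (395) and at 31.5 CPM in an unnamed cluster led by *CYP26A1* (500 cells). In the 4 basal keratinocyte-like clusters it ranged from 3.74 to 15.2 CPM. *SLC15A1* stood at 48.8 CPM [42.9 to 55.2] in the basal-like cluster led by *IGFBP5* (646 cells) and 56.9 CPM [50.1 to 64.4] in the unnamed cluster led by *RGS4* (582 cells), against 9.22 CPM [6.87 to 12.1] in the differentiated-like cells. *SLC9A3* was highest in the differentiated-like cells at 78.1 CPM [70.9 to 85.9] and ranged from 17.6 to 43.5 CPM over the basal-like clusters.

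NB omasum shared the arrangement of *SLC15A1* and *SLC9A3* but not the presence of *SLC14A1*. *SLC15A1* was highest in the basal-like cluster led by *SMOC2* (1101 cells), at 55.9 CPM [50.7 to 61.5], and stood at 11.4 CPM in the differentiated-like cluster led by *KRT6B* (497 cells). *SLC9A3* stood at 21.2 and 46.8 CPM in these 2 clusters, and the 5 differentiated-like clusters ranged from 8.22 to 46.8 CPM. Over all basal-like and all differentiated-like cells of omasum, *SLC15A1* stood at 27.4 and 13.7 CPM, *SLC9A3* at 12.7 and 27.9 CPM, and *SLC14A1* at 0.0734 and 0.0935 CPM. In NB abomasum *SLC9A3* was concentrated in the parietal-like cells (376), the acid-secreting cells, at 41.4 CPM [35.2 to 48.3].

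**Figure D3:**
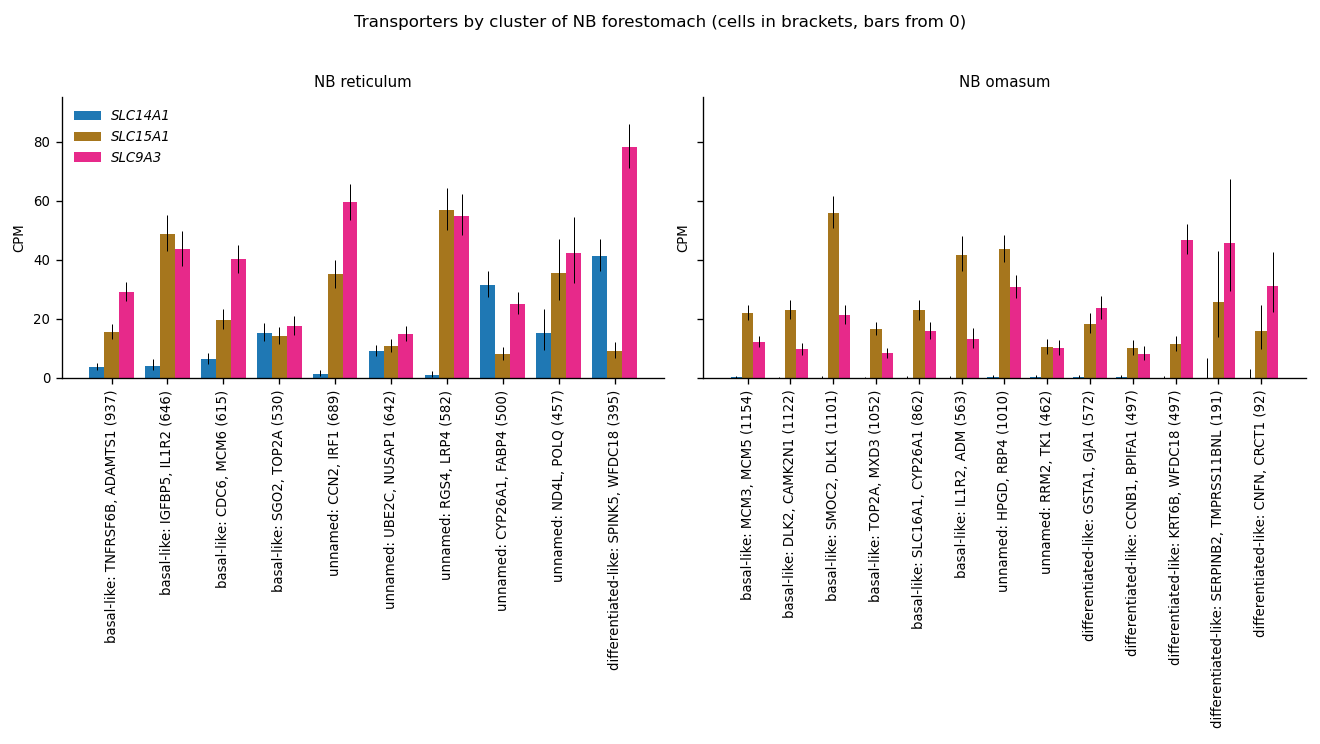
CPM (linear axis from 0) of *SLC14A1*, *SLC15A1*, and *SLC9A3* in keratinocyte-like and unnamed clusters of at least 20 cells from NB reticulum and omasum, without any that has a member among their 2 leading genes, with 95% Poisson intervals. In reticulum *SLC14A1* stands at 41.4 CPM and *SLC15A1* at 9.22 CPM in the differentiated-like cells, and in omasum *SLC14A1* stays near 0.

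NB and AD were compared in the 4 tissues with both stages. A gene was tested where it reached 10 CPM at either stage, and was called past the fold where the log2 ratio of CPM plus 5 was at least 2 in size, a 4-fold change. With 1 library per stage these are differences between libraries. The calls used the measured CPM, also where it was 0. In the printed fold, a gene at 0 UMIs was taken at 3 counts in that library, so that fold is a lower bound. A call on 0 UMIs therefore does not allow for this floor.

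In the duodenum under the 1-UMI definition, 5 of 5 members tested were higher in NB past the fold, where 10.4% of the 8517 genes tested were. All 5 reached 10 CPM in NB alone, here and in jejunum, so the filter admitted them by the stage in which they were high. The reverse was seen for 0 members and 7.75% of genes. *SLC13A2* was at least 52.3-fold, *SLC5A1* at least 18.4-fold, and *SLC2A2* at least 13.8-fold higher in NB. *SLC15A1* was 10.8-fold higher [4.93 to 29.3]. *SLC9A3* was 108-fold higher [19.4 to 4276], on 1 UMI in AD. These values rest on 183 AD cells of which 80.9% held *PTPRC*, and the part of leukocytes in the ratios was not tested.

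Under the 5-UMI definition the duodenum gave 3 of 5 members higher in NB past the fold, against 1.96% of genes, and 0 higher in AD, against 2.86%. The 3 reached 10 CPM in NB alone, so here too the filter admitted them by the stage in which they were high. *SLC13A2* remained at 155 CPM in NB and 0 UMIs in AD (at least 16.9-fold), *SLC2A2* at 39.6 CPM and 0 UMIs (at least 4.31-fold), and *SLC5A1* at 52.6 CPM and 1 UMI, or 3.06 CPM, a ratio of 17.2 [3.08 to 678]. *SLC15A1* no longer differed in that direction, with 74.1 CPM in NB and 91.9 CPM in AD, a ratio of 0.807 [0.565 to 1.197]. *SLC9A3* stood at 113 and 27.6 CPM, 4.11-fold higher in NB [2.16 to 8.99], and was not past the fold on the scale with 5 CPM added. These AD values rest on 24 cells, where 3 counts would be 9.19 CPM. The calls of *SLC13A2* and *SLC2A2* took their 0 UMIs as 0 CPM.

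In the jejunum the 1-UMI definition gave 5 of 5 members higher in NB (3.4% of genes) and 0 higher in AD (4.39%). Of the 262 AD cells, 83 lay in a tuft-like cluster, and the part of these in the ratios was not tested. *SLC13A2* was at least 81.3-fold, *SLC9A3* at least 48.2-fold, and *SLC2A2* at least 18.8-fold higher in NB, *SLC5A1* was 74.3-fold [13.3 to 2939] on 1 AD UMI, and *SLC15A1* 12.4-fold [7.81 to 20.9]. With under 10% mitochondrial UMIs the log2 ratios of *SLC5A1* and *SLC2A2* were 1.31 and 1.38, so neither was past the fold. Under the 5-UMI definition, with 331 AD cells, 4 of 6 members were higher in NB (1.65% of genes) and 1 of 6 in AD (2.37%). The 4 reached 10 CPM in NB alone and the 1 in AD alone. The filter thus admitted each by the stage in which it was high. *SLC13A2* stood at 129 and 2.94 CPM (43.9-fold, 27.0 to 76.9) and *SLC5A1* at 37.5 and 5.52 CPM (6.79-fold, 4.72 to 10.1). *SLC2A2* stood at 28.8 CPM in NB against 1 AD UMI, and *SLC9A3* at 85.2 CPM against 2 AD UMIs, a ratio of 232 [64.0 to 1913].

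The other 2 members behaved differently in the jejunum. *SLC15A1* stood at 135 CPM in NB and 93.1 CPM in AD under the 5-UMI definition, 1.45-fold higher in NB [1.32 to 1.59] and not past the fold. *SLC26A3* stood at 5.58 CPM in NB and 67.2 CPM in AD, 12.0-fold higher in AD [9.85 to 14.8]. Under the 1-UMI definition *SLC26A3* had not reached 10 CPM at either stage (4.31 and 1.64 CPM). Its 5-UMI level in AD rested on 365 UMIs, of which at most 3 lay in cells retained under the 1-UMI definition. For *SLC15A1* these were 506 and at most 18. The remaining UMIs lay in cells past the limits or removed as doublets, and their spread over cells was not tested.

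**Figure D4:**
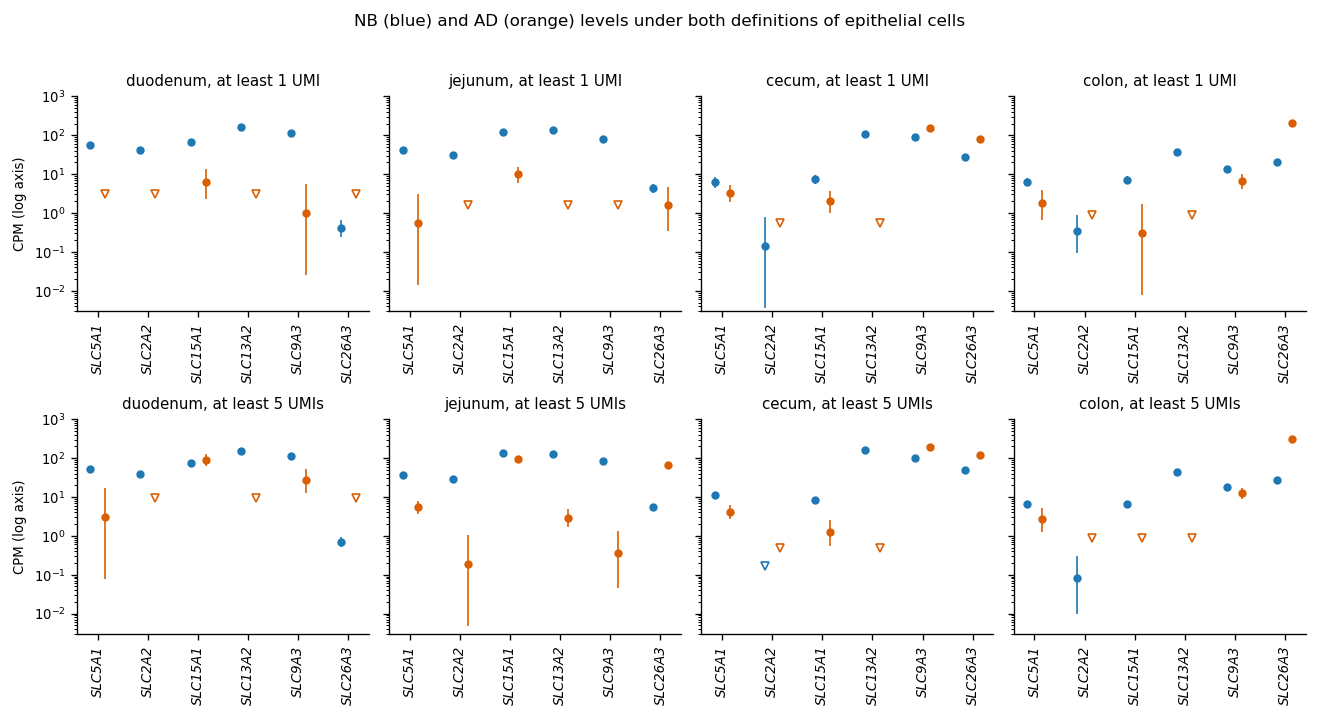
CPM (log axis) of 6 transporters in NB (blue) and AD (orange) cells of the 4 tissues with both stages, under the 1-UMI definition (top) and the 5-UMI definition (bottom), with 95% Poisson intervals. Open triangles mark 0 UMIs at the level of 3 counts. *SLC15A1* of duodenum lies at 66.4 (NB) and 6.18 CPM (AD) in the top row and at 74.1 and 91.9 CPM in the bottom row, while *SLC13A2* is higher in NB in all 8 panels.

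In the cecum, 1 of 3 members tested was higher in NB past the fold (*SLC13A2*), where 4.9% of genes were, and 0 in AD, where 1.91% were. *SLC13A2* stood at 110 CPM in NB and 0 UMIs in AD, at least 198-fold higher. Here and in colon it passed the filter through NB alone, under both definitions. *SLC26A3* and *SLC9A3* were higher in AD by 2.84-fold [2.40 to 3.38] and 1.71-fold [1.54 to 1.90], short of the fold. Both directions turned in cells with under 10% mitochondrial UMIs, where the log2 ratios of NB over AD were 2.09 for *SLC26A3* and 2.28 for *SLC9A3*, past the fold, against -1.36 and -0.74 over all cells. With the mean over barcodes that of *SLC9A3* was 0.13. Cells with a UMI of *SLC26A3* had a median of 18.2% mitochondrial UMIs in AD cecum and 8.95% in NB cecum. In cells with *SLC9A3* the medians were 15.8% and 10.8%. The 5-UMI definition gave 1 of 4 in NB (1.78% of genes) and 0 in AD (2.09%), with *SLC13A2* at least 345-fold higher in NB and *SLC26A3* at 49.9 and 117 CPM and *SLC9A3* at 99.9 and 189 CPM.

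In the colon, 1 of 3 members tested was higher in NB (*SLC13A2*, at least 39.6-fold; 1.23% of genes) and 1 in AD (*SLC26A3*; 4.09% of genes). *SLC26A3* stood at 20.4 CPM in NB and 206 CPM in AD, 10.1-fold higher in AD [8.70 to 11.8]. *SLC9A3* stood at 13.9 and 6.72 CPM, 2.07-fold higher in NB [1.32 to 3.40] (18.3 and 12.3 CPM, 5-UMI), and with under 10% mitochondrial UMIs its log2 ratio turned to -0.10, against 0.69. The 5-UMI definition gave the same 2 calls, in NB (1.02% of genes) and in AD (2.79%), with *SLC26A3* at 27.4 and 318 CPM.

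The level of *SLC26A3* in AD colon came from few cells. Of its 675 UMIs, 629 (93.2%) lay in 5 of 442 cells, and the library stood at 14.4 CPM without them. Those 5 cells had 12.5% to 27.0% mitochondrial UMIs, above the median of 8.70% of the library. This was not particular to AD. In colon, cells with a UMI of *SLC26A3* had a median of 17.1% in AD and 13.1% in NB, and the others 8.60% and 6.62%. A limit of 10% thus leaves out many of these cells at both stages. In cells with under 10% mitochondrial UMIs the log2 ratio of *SLC26A3* in colon was 1.09, against -3.06 over all cells, so its direction turned. In AD cecum 57.6% of 432 UMIs lay in 5 cells, without which the library held 34.5 CPM.

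Clusters picked by the absorptive markers were set side by side in cecum and colon. They were not alike in their leading genes, so their values are given without a fold. In cecum the NB clusters led by *S100G* and *AQP8*, a water channel (50 cells), and by *CYP26A1* (47 cells) held 414 CPM [376 to 456] and 568 CPM [484 to 663] of *SLC13A2*. The AD cluster led by *AQP8* and *PMP22* (25 cells) held 0 UMIs, where 3 counts would be 6.17 CPM. *SLC9A3* stood at 312 CPM [279 to 348] and 636 CPM [546 to 735] in these NB clusters and at 1465 CPM [1359 to 1577] in the AD one. *SLC26A3* stood at 108 CPM [88.6 to 130] and 70.6 CPM [43.1 to 109] in NB and at 811 CPM [733 to 895] in AD. Both genes were among the 10 leading genes of that AD cluster. *SLC15A1* stood at 30.1 and 21.2 CPM in NB and 0 UMIs in AD, and *SLC5A1* at 20.4 and 21.2 CPM in NB and on 2 UMIs in AD. Over both NB clusters, 20 of the 37 *SLC15A1* UMIs lay in 5 cells, without which the level fell from 28.2 to 14.2 CPM, and so did 14 of the 27 *SLC5A1* UMIs, from 20.5 to 10.8 CPM. The other AD cluster that the markers picked (115 cells) was led by *CFD*, *GUCA2B*, *OTOP2*, and *CA7*, of which *OTOP2* and *CA7* are known from a separate epithelial cell type, and it was left unnamed. It held 39.6 CPM of *SLC9A3*, 1 UMI of *SLC26A3*, and 0 UMIs of *SLC13A2*. Of the 395 *SLC26A3* UMIs in both AD clusters, 249 lay in 5 cells.

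In colon, the NB cluster led by *S100G* (155 cells) and the AD cluster led by *GUCA2A* and *GUCA2B* (75 cells) were set side by side. The leading genes of the AD cluster include *OTOP2* and *CA7* as well as *CA4* and *PHGR1*, so it too was left unnamed, and *SLC26A3* is itself among them. *SLC26A3* stood at 109 CPM in NB and 716 CPM [662 to 772] in AD. In AD 13 of the 75 cells held a UMI, and 629 of the 668 UMIs lay in the 5 cells named above, without which the AD cluster held 45.7 CPM, below NB. *SLC9A3* stood at 76.4 CPM in NB and 22.5 CPM in AD, where 19 of the 21 UMIs lay in 5 cells, without which it held 2.32 CPM. *SLC13A2* stood at 148 CPM, *SLC15A1* at 27.3 CPM, and *SLC5A1* at 18.4 CPM in NB, and all 3 at 0 UMIs in AD, where 3 counts would be 3.21 CPM. Of the 46 *SLC15A1* UMIs in NB, 29 lay in 5 cells, without which it held 10.6 CPM. No cluster of AD duodenum or jejunum was named absorptive-like, so the stages were not set side by side there.

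**Figure D5:**
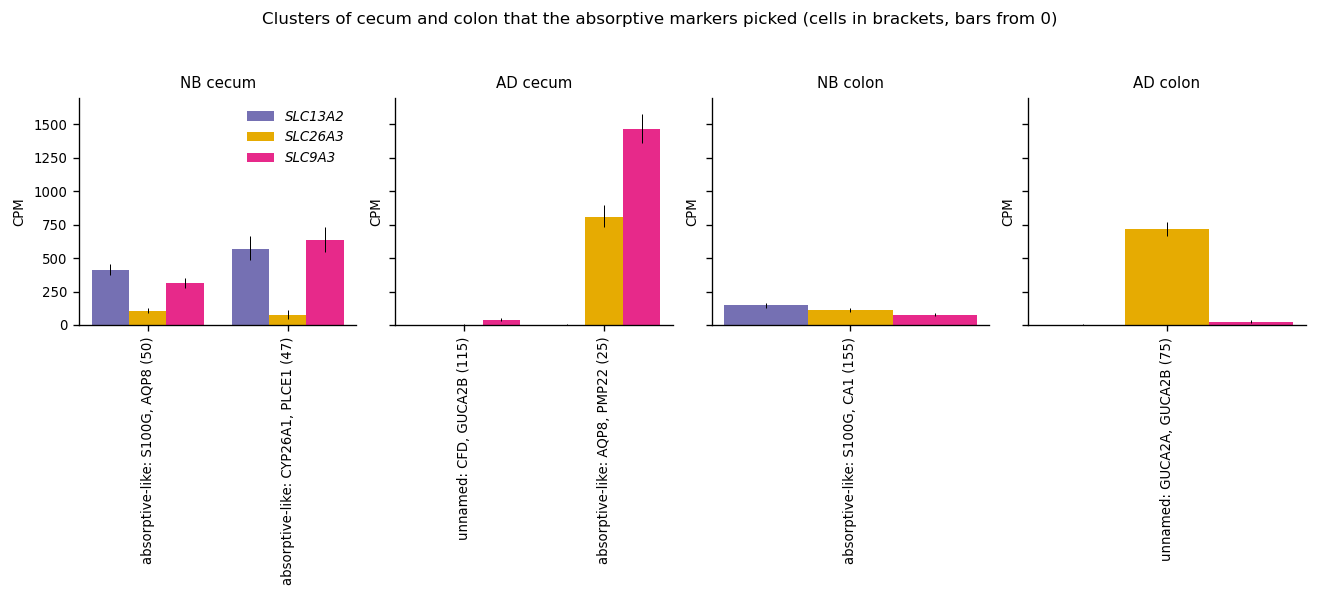
CPM (linear axis from 0) of *SLC13A2*, *SLC26A3*, and *SLC9A3* in each cluster of cecum and colon that the absorptive markers picked, with 95% Poisson intervals, 2 leading genes, and the number of cells. *SLC13A2* is at 148 to 568 CPM in the NB clusters and at 0 UMIs in AD, and *SLC26A3* reaches 811 and 716 CPM in AD.

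Over all genes tested under the 1-UMI definition, the median log2 ratio of NB to AD was -0.32 in duodenum, -0.39 in jejunum, -0.13 in cecum, and -0.37 in colon. With dominant and mitochondrial genes left out of the denominator it moved to -0.12, -0.24, -0.08, and -0.19, and with at least 5 UMIs it was -0.29, -0.19, -0.13, and -0.28. The ratios of members are to be read relative to these shifts. No median over the members is given, since the filter admitted many of them through NB alone.

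Other transport genes were described from a list of 96, of which 92 were listed. Under the 1-UMI definition, 22 of 50 tested were higher in NB and 4 in AD in duodenum (10.4% and 7.75% of all genes), 11 and 2 of 54 in jejunum (3.4% and 4.39%), 6 and 2 of 48 in cecum (4.9% and 1.91%), and 5 and 5 of 45 in colon (1.23% and 4.09%). With at least 5 UMIs the counts were 7 and 3 of 48 (1.96% and 2.86% of all genes), 2 and 3 of 52 (1.65% and 2.37%), 8 and 3 of 44 (1.78% and 2.09%), and 4 and 3 of 43 (1.02% and 2.79%). In NB intestine 7 of 60 were higher in all small intestine libraries and 14 in all large intestine ones, where 9.05% and 10.6% of all genes tested were. For AD duodenum, 3 counts would be 3.09 CPM under the 1-UMI and 9.19 CPM under the 5-UMI definition. Levels at or below these rest on at most 3 UMIs.

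Among apical sugar and nucleoside carriers, *SLC28A2*, a sodium-nucleoside carrier, stood at 87.9 CPM in NB duodenum and 54.5 CPM in NB jejunum, and *SLC5A4*, a relative of *SLC5A1*, at 42.5 and 29.8 CPM. With at least 5 UMIs *SLC28A2* stood at 45.9 and 10.5 CPM in AD duodenum and jejunum and *SLC5A4* at 33.7 and 7.36 CPM, and only *SLC28A2* in jejunum was past the fold. *SLC28A1*, another nucleoside carrier, stood at 9.69 CPM in NB jejunum and 33.9 CPM in AD under that definition, not past the fold. Of the general sugar carriers, *SLC2A1* was highest in NB omasum at 88.4 CPM, and *SLC2A3* stood at 82.4 CPM in AD duodenum and 78.8 CPM in AD colon under the 1-UMI definition but at 0 UMIs and 18.4 CPM under the 5-UMI definition.

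Of the amino acid carriers, *SLC1A5*, a glutamine carrier, stood at 236 and 213 CPM in NB reticulum and omasum and at 14.5 to 56.7 CPM in the NB intestine. *SLC6A14*, an apical carrier of broad specificity, reached 144 CPM in NB cecum and rectum and was past the fold in colon under both definitions (66.5 CPM in NB, 2.75 CPM in AD). The basolateral *SLC7A8* stood at 150 CPM in NB cecum against 1.66 CPM in AD and at 54.9 CPM in NB colon against 0.611 CPM in AD, past the fold in both tissues under both definitions. Its partner *SLC3A2* stood at 118 and 23.7 CPM in NB and AD cecum (160 and 21.4 CPM, 5-UMI).

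*SLC16A1*, which carries lactate and short-chain fatty acids, was highest in the forestomach, with 238 CPM in NB reticulum and 176 CPM in NB omasum against 0.995 CPM in abomasum. Its membrane partner *BSG* was spread over the tract, at 876 CPM in NB reticulum, 555 CPM in NB omasum, and 830 CPM in NB cecum. *AQP3*, a water and glycerol channel, stood at 876 and 1403 CPM in reticulum and omasum and at no more than 15.7 CPM in the other tract libraries. In colon *SLC16A1* was higher in AD past the fold under both definitions (26.2 CPM in NB and 130 CPM in AD, 1-UMI).

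Of ion and water genes in the large intestine, *CA2*, a carbonic anhydrase that supplies bicarbonate and protons, stood at 102 and 90.1 CPM in NB cecum and colon and at 913 and 992 CPM in AD, past the fold under both definitions. *AQP8* stood at 434 CPM in NB cecum and 59.0 CPM in AD cecum (592 and 71.5 CPM, 5-UMI). *AQP1*, a water channel, was higher in NB past the fold in all 4 tissues under both definitions, from 119 CPM in NB colon and 9.17 CPM in AD colon to 19.2 CPM in NB duodenum and 1.03 CPM in AD duodenum. The duodenum calls were the weakest based. The log2 ratio was 2.00 under the 1-UMI definition. Under the 5-UMI definition it stood at 21.2 CPM in NB and 0 UMIs in AD, where 3 counts would be 9.19 CPM. *AQP1* is also a gene of endothelium, and the 4 endothelial markers were higher in NB in the same tissues, as given above. Their part in it was not tested. *CFTR*, the apical chloride channel, and *SLC4A4*, a sodium-bicarbonate carrier, turned direction in duodenum with the definition: *CFTR* stood at 32.8 CPM in NB and 0 UMIs in AD under the 1-UMI definition, and at 33.3 and 150 CPM under the other, and *SLC4A4* at 15.8 CPM and 0 UMIs, and at 15.2 and 88.8 CPM. *SLC4A7*, a sodium-bicarbonate carrier, stood at 45.9 CPM in NB and 390 CPM in AD jejunum (32.6 and 209 CPM, 5-UMI).

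Of the metal carriers, *SLC40A1*, the iron exporter ferroportin, stood at 282 and 147 CPM in NB cecum and colon and at 23.3 and 20.2 CPM in AD, past the fold under both definitions. Macrophages also express it, and the myeloid markers were higher in NB in both tissues, as given above. Their part in it was not tested. In duodenum it stood at 105 CPM in NB and 3.09 CPM in AD under the 1-UMI definition and at 99.5 and 116 CPM under the 5-UMI definition. *SLC39A4*, the intestinal zinc importer, stood at 250 CPM in NB duodenum and 1.03 CPM in AD (237 and 39.8 CPM, 5-UMI), and *SLC39A14*, another zinc carrier, at 174 and 5.15 CPM (186 and 88.8 CPM). The 1-UMI levels of *SLC40A1* and *SLC39A4* in AD duodenum were at or below the 3.09 CPM that 3 counts would be. The basolateral bile acid exporter *SLC51A* and *SLC51B* stood at 51.6 and 41.0 CPM in NB duodenum and at 28.0 and 61.3 CPM in NB jejunum, and under the 5-UMI definition at 65.0 and 74.9 CPM in AD jejunum.

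*SLC46A1*, the proton-coupled folate carrier, stood at 64.0 CPM in NB duodenum and 29.0 CPM in NB jejunum, and *SLC22A5*, a carnitine carrier, at 71.8 and 65.8 CPM. With at least 5 UMIs *SLC46A1* stood at 76.6 CPM in AD duodenum against 70.3 CPM in NB, and at 18.6 and 34.3 CPM in jejunum, and *SLC22A5* at 6.12 and 71.6 CPM in duodenum and 32.4 and 63.1 CPM in jejunum. *PDZK1*, a scaffold protein of the apical membrane, stood at 22.1 and 47.8 CPM in NB duodenum and jejunum and at no more than 5.23 CPM in the rest of the tract under the 1-UMI definition, but at 25.8 CPM in AD jejunum and 6.12 CPM in AD duodenum with at least 5 UMIs. The 6.12 CPM of both *SLC22A5* and *PDZK1* in AD duodenum lay below the 9.19 CPM that 3 counts would be. *SLC9A3R1*, a scaffold that binds the exchanger encoded by *SLC9A3*, was more even along the intestine, from 94.4 CPM in NB ileum to 183 CPM in AD colon.

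Genes whose profile was most like a member's were sought among those of at least 20 CPM in 1 library, by Pearson's r of log2(CPM + 5) over the 13 tract libraries. The points share library depth, cell makeup, and, for AD, the animal, so r is a description. *SLC5A1* was most like *LEAP2* (r = 0.978), *APOB* (0.968), and *CDR2* (0.965). *SLC2A2* was most like the unnamed gene ENSBTAG00000012363 (0.998), *SLC5A4* (0.997), and *LCT*, lactase (0.996), and its r rests on the 2 libraries with over 1 CPM. *SLC15A1* was most like *GK* (0.930), *COQ4* (0.914), and *RNF121* (0.892), and those like *SLC13A2* included *LYVE1* (0.946) and *TNFAIP8L3* (0.944). Those like *SLC26A3* included *STYK1* (0.935) and *HOXA5* (0.935). *SLC9A3* was most like *NDUFS7* (0.881), *CYCS* (0.878), and *UQCRFS1* (0.859), genes of mitochondrial respiration. The other 4 members did not reach 20 CPM in any tract library.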

How the data were processed

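Per the labels and the methods, the authors built 10x Genomics 3' libraries and counted with Cell Ranger 3.1.0 on the ARS-UCD1.2 cattle genome. The deposited values are counts of UMIs per gene and barcode, not normalized. The annotation release is not given in the sources used here. The study's filters were applied (500 to 4000 genes, under 50000 UMIs, under 40% mitochondrial UMIs). Of 172405 barcodes, 119798 were retained. The study used DoubletFinder. Here 2 artificial doublets per cell were scored by nearest neighbors, as Scrublet does, and the highest 0.8% per 1000 barcodes were removed. CPM, exact Poisson and Clopper-Pearson intervals at the 95% level, and a floor of 3 counts were computed. With 1 library per tissue and stage no test was made. Each library was clustered by the Leiden method at resolution 1 on 30 principal components of 2000 variable genes. The thresholds for naming a cluster from its marker list (at least 3 detected markers) were chosen with counts in view.

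The 10 members and all lists were chosen with earlier results of these data known. From the list of 96 transport genes, the text names the highest in any library, up to 3 per subgroup, and those past the fold in at least 3 of 4 tissues. *CFTR*, *SLC4A4*, and the genes of clusters were named after their values were seen. For each member of at least 20 CPM in a tract library, the 3 genes of highest r are named. Some results that these rules would name are not reported here. Alternatives covered doublets, definitions of epithelial cells, filters, scaling, weighting, background, pseudocount, fold, and clustering. The comparisons, thinning, and segment counts were tested on simulated data. Promoter motifs were not analysed here. Python 3.11.15, NumPy 2.4.6, SciPy 1.17.1, pandas 2.3.3, igraph 0.11.9, leidenalg 0.10.2, scikit-learn 1.9.0, and matplotlib 3.10.9 were used.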

Additional observations from a re-analysis of the deposited data

Results flagged for a closer look

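Under the 1-UMI definition, only tissues where a member reached 10 CPM at either stage were considered for that member. Over these, *SLC9A3* alone had NB to AD differences that pointed in different directions between tissues. Under the 5-UMI definition *SLC15A1* did so too, at -0.29 in duodenum and 0.51 in jejunum. The log2 ratio of *SLC9A3* under the 1-UMI definition was 4.27 in duodenum, 4.07 in jejunum, 0.69 in colon, and -0.74 in cecum. Each tissue and stage had 1 library, so the difference between tissues was not tested. The opposite direction rested on the cecum alone, where the log2 ratio was 2.28 with under 10% mitochondrial UMIs and 0.00 in the clusters that the absorptive markers picked. In colon it was -0.10 with under 10% mitochondrial UMIs. Under the 5-UMI definition the log2 ratios of *SLC9A3* were 1.86, 4.07, 0.43, and -0.89 in the same order.

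Some members had more signal in cells outside the comparisons, those with no UMI of *EPCAM*, *KRT14*, or *PTPRC*, than in the epithelial cells of the same library. *SLC14A1* stood at 1.78 CPM in these cells of NB duodenum, 2.79 CPM of NB jejunum, and 2.85 CPM of NB cecum, against 0.115 CPM, 0.253 CPM, and 0 UMIs in the epithelial cells. In NB jejunum the endothelial-like cluster among the *EPCAM* cells held 6.24 CPM [1.29 to 18.2] of *SLC14A1*. *SLC15A1* stood at 1.28 CPM in such cells of NB abomasum, against 0.420 CPM in the epithelial cells.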

How the results depend on the processing

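With 1 library per tissue and stage, no library was left out, and the counting intervals hold no error between animals. AD duodenum had the fewest epithelial cells of the AD libraries under both definitions. No paired analysis was possible because each group has replicate 1 alone, so the groups share fewer than 2 replicate numbers.

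Under the 5-UMI definition, which was chosen after seeing the data, the members higher in NB in duodenum fell from 5 to 3 and the log2 ratio of *SLC15A1* there turned to -0.29. The members higher in AD in jejunum rose from 0 to 1 under that definition, with doublets kept, and with no upper limits, and those higher in NB there fell from 5 to 4 in the same settings. Those higher in NB in duodenum were 4 with at least 2 UMIs, with no UMI of 7 leukocyte, stromal and endothelial genes, and with no upper limits. With under 10% mitochondrial UMIs, the members higher in NB were 3 in jejunum, without *SLC5A1* and *SLC2A2*, and 3 in cecum, that higher in AD in colon was 0, the log2 ratio of *SLC26A3* in colon turned to 1.09, and the members apart between small and large intestine were 0 in both directions. In the clusters that the absorptive markers picked, which in AD cecum and colon were mostly unnamed ones, the members higher in NB were 2 in cecum and 3 in colon. At 2-fold, 1 member was higher in AD in cecum. The separation of *SLC15A1* between small and large intestine (1 member) was lost, giving 0, with at least 2 UMIs of *EPCAM* and *KRT14*, with under 10% mitochondrial UMIs, with the mean over barcodes, and with background subtracted. The causes were not tested.

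Without the 5 cells richest in *SLC26A3*, left out after the data were seen, the unnamed *GUCA2A*-led cluster of AD colon fell from 716 to 45.7 CPM. The log2 ratio of *SLC13A2* kept its sign and stayed past the fold in every alternative, at 4.04 to 7.35 in duodenum, 2.84 to 7.07 in jejunum, 4.20 to 6.79 in cecum, and 2.60 to 5.22 in colon. Of the recomputed log2 ratios of members, 86 stayed within counting error and the others moved. In 7 the sign changed, of which 2 had been past the fold, *SLC15A1* in duodenum and *SLC26A3* in colon (above). The other 5 were 2.09 for *SLC26A3* in cecum, 2.28 for *SLC9A3* in cecum, and -0.10 for *SLC9A3* in colon with under 10% mitochondrial UMIs, and 0.13 with the mean over barcodes and 0.00 in the marker-picked clusters for *SLC9A3* in cecum. Of the recomputed levels, 1065 stayed within their counting interval and 285 did not.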

Other observations

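Some of the same carriers were also found outside the tract, in NB liver. The 211 *EPCAM* cells of NB liver held 34.1 CPM [24.9 to 45.6] of *SLC5A1*, 24.2 CPM [16.6 to 34.2] of *SLC2A2*, and 18.9 CPM [12.3 to 28.0] of *SLC10A2*, the highest level of the bile acid carrier in any library. In the cluster led by *AHSG*, *SPP1*, and *KNG1* (108 cells) these stood at 51.0 CPM [36.6 to 69.2], 37.3 CPM [25.2 to 53.3], and 31.1 CPM [20.1 to 45.9]. The *PTPRC* cells of the same library held 0.0554 CPM of *SLC5A1*, 0.0923 CPM of *SLC2A2*, and 0 UMIs of *SLC10A2*. *CFTR* was also highest in these liver cells, at 238 CPM. Of the liver *EPCAM* cells, 37.9% held *PTPRC*, and they held 32451 CPM of *APOA1*, a plasma protein gene of hepatocytes, as *AHSG* and *KNG1* also are. The part of leukocytes and hepatocytes in these levels was not tested.

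The 73 *EPCAM* cells of NB salivary gland held 9.39 CPM [3.05 to 21.9] of *SLC13A2* on 5 UMIs, and 1 UMI each of *SLC5A1* and *SLC14A1*. The other members were at 0 UMIs, where 3 counts would be 5.64 CPM.

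*SLC9A3* of NB abomasum lay in cells with many mitochondrial UMIs. Cells with a UMI of it had a median of 30.2% mitochondrial UMIs and the others 3.89%.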
